A study of Mus musculus with 6 samples.

Results

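Blood group antigens are inherited differences in proteins and sugars on the red cell surface. The 8 genes described here encode red cell surface proteins that carry such antigens in humans: Smim1 (the Vel antigen), Rhd and Rhag (the Rh protein and its partner glycoprotein), Ermap (Scianna), Kel (Kell), Aqp1 (Colton), Bcam (Lutheran) and Art4 (Dombrock). Their open chromatin was followed in ATAC-seq peak lists, in which a transposase cuts accessible DNA. The peaks considered were those in or within 20 kb of the 8 RefSeq gene spans, which held 57 of the 62098 consensus regions near any of 21887 protein-coding genes. A consensus region is a stretch where peaks of the 6 samples, sharing at least 1 bp, were merged.

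The samples were lineage-depleted bone marrow cells, enriched for stem and progenitor cells, from C57BL/6 mice: 3 with the genotype UTX_KO, lacking the histone demethylase UTX (gene Kdm6a), and 3 with the genotype UTX_WT. They are called Utx knockout and wild type below. The allele, any Cre driver, the age and sex of the mice, and whether each sample came from a separate animal were not stated. The members were chosen with the peak differences between these genotypes already known, so the values near the 8 genes are a description and carry no test.

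Red cells form from bone marrow progenitors that switch on surface and membrane genes under transcription factors such as GATA1 and KLF1. Rh protein and RhAG sit together in a membrane complex, and RhAG conducts ammonia. Kell is a metalloprotease held to the membrane protein XK, whereas the Lutheran protein binds laminin. Lineage depletion removes maturing red cells that carry the lineage antigen, but earlier erythroid progenitors can remain.

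Knockout lists held 45260, 50249 and 44576 peaks in samples 1, 2 and 3, and wild-type lists 57405, 57917 and 57622, so the mean list length in knockout was 0.810 times that in wild type. Sequencing depth is unknown for every list, and an absent peak means only that none was called. Kdm6a itself had 6, 6 and 5 peaks in knockout and 4, 5 and 5 in wild type; without the position of the deletion these do not check the genotype. Each of 11 stem and progenitor markers, such as Kit and Cd34, had at least 1 open region nearby in some sample, as did 16985 of all 21887 protein-coding genes. Over the whole marker list there were 47 to 54 peaks in knockout samples and 73 to 75 in wild-type samples. Procr, a gene of this list with few peaks, had 0 in each knockout sample, against 2, 2 and 1 in wild type. Ly6a went the other way in DNA under peaks, with 1337, 1537 and 1394 bp in knockout and 1182, 1116 and 1323 bp in wild type. Without overlap, 8 of the 11 had less DNA under peaks in knockout and 1, Ly6a, had more, beside 49.4% and 9.90% of genes with a region.

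Fewer peaks lay near the blood group genes in each Utx knockout list than in any wild-type list. Over the 8 genes there were 16, 19 and 20 peaks in knockout samples 1, 2 and 3, against 48, 45 and 57 in wild-type samples 1, 2 and 3. The highest knockout count lay below the lowest wild-type count and the mean in knockout was 0.367 times that in wild type. As a share of each sample's own peaks the ratio was 0.454. DNA under those peaks summed to 9564, 10624 and 9847 bp in knockout and to 31669, 34638 and 42043 bp in wild type (10012 ± 549 and 36117 ± 5343 bp, SD, n = 3 each). This is a ratio of 0.277, beside 0.844 for all peaks of the lists.

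A region counts as lost if it had a peak in each wild-type sample but in 0 knockout samples, and as gained in the opposite case. Of the 57 regions, 19 (33.3%) were lost and 0 were gained, where 10.7% of all regions near protein-coding genes were lost and 4.05% gained. A lost region was present at all 8 genes, and at 36.3% of all genes with a region. A peak in all 6 samples was found at 14 regions (24.6%, against 42.9% of regions near genes). Of the 41 regions present in all 3 wild-type samples 46.3% were lost, beside 17.0% of such regions near genes. Because the genes were picked on this contrast, nothing is read from these differences in share.

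Of the 57 regions, 41 had a peak in more wild-type than knockout samples, 15 in equal numbers and 1, inside Art4, in more knockout samples. These are 71.9%, 26.3% and 1.75% of the regions, beside 39.8%, 45.8% and 14.4% of the 62098 regions near genes. Of the 41, 7 had a peak in all 3 wild-type samples and in a lone knockout sample, which was knockout sample 2 at 3 of them and knockout sample 3 at 4. A peak in wild type alone could rest on a lone sample: 10 regions were open only in wild-type sample 3 and 1 only in wild-type sample 1. Wild-type sample 3 also had the most regions of its own among all regions near genes, 3123 against 2043 and 1639 for wild-type samples 1 and 2, and 647, 1143 and 816 for knockout samples 1, 2 and 3.

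**Figure D1:**
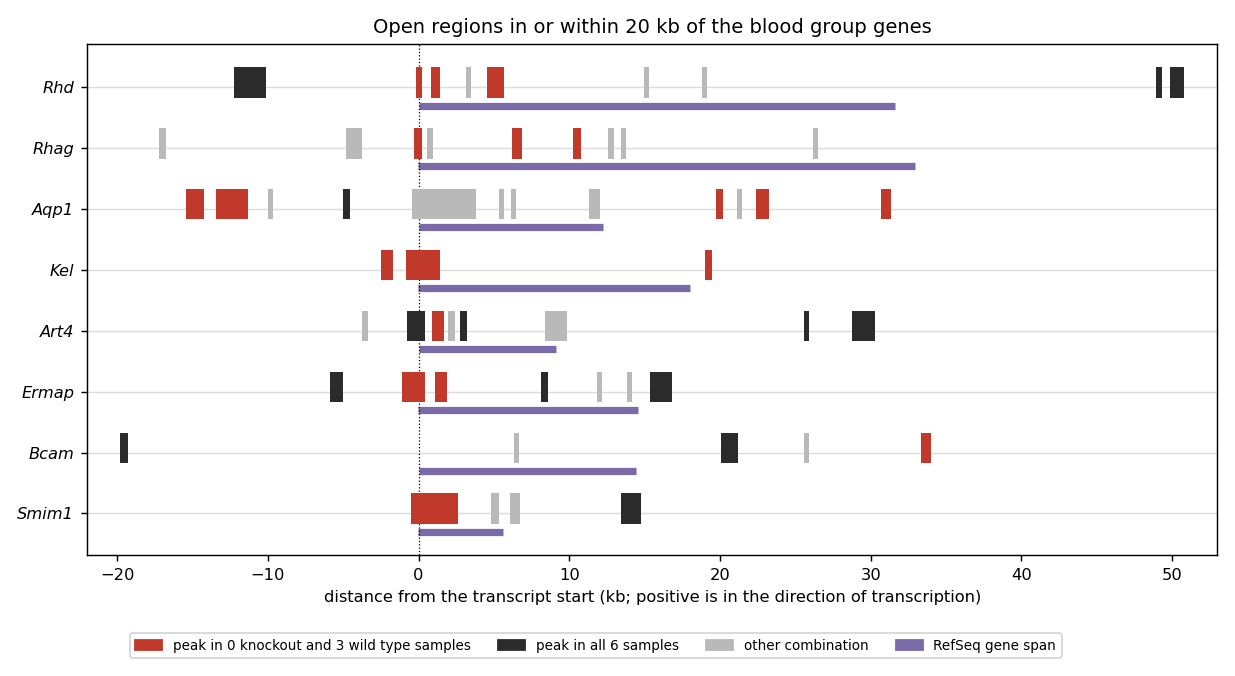
Consensus regions around each blood group gene, placed by distance in kb from the transcript start (dotted line), with the gene span below each row; narrow regions are drawn at a minimum width. Red regions (19) had a peak in 0 knockout and 3 wild-type samples, black regions (14) in all 6 samples, and grey regions (24) in another combination; red regions cover the start of 5 genes.

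Of the 31 regions that overlapped one of the 8 genes, 11 were lost and 3 had a peak in all 6 samples. Of 15 regions that overlapped only another protein-coding gene, 2 were lost and 10 were in all 6 samples, among them regions at Maco1 and Tmem50a beside Rhd, Lrrc47 beside Smim1, Zfp691 and Svbp beside Ermap, Nectin2 and Cblc beside Bcam, and Wbp11 beside Art4. Of the 11 regions that overlapped no protein-coding gene, 6 were lost and 1 was in all 6 samples. The same split was not made for regions near all genes, and the 8 genes were picked on this contrast. Nothing is therefore read from these counts about where loss falls. The lost regions had a median width of 769 bp (435 to 3120 bp), and lost regions near any gene a median of 450 bp. Where all 6 samples had a peak, the mean length under peaks was lower in knockout at 11 of 14 regions, beside 17855 of 26641 such regions near genes, and the median ratios were 0.841 and 0.930.

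Most of these genes had lost peaks at the transcript start. RefSeq promoter windows of 300 bases, 250 before and 50 after the start, were matched for all 8 genes. The windows of 5 genes, Rhd, Rhag, Kel, Ermap and Smim1, lay at least partly under a peak in every wild-type sample, but under none in knockout. Over all 21263 windows of protein-coding genes 0.837% were lost in this sense, 0.611% were gained and 48.4% had a peak in all 6 samples. Such loss was not particular to the 8 genes: 7 of 13 windows (53.8%) of the erythroid markers described below were lost. Of 36 windows of other blood group genes, 2 (5.56%) were lost. At Aqp1 the whole window was open in wild type, while knockout samples 1 and 2 had no peak there and a peak in knockout sample 3 covered 141 bases. All 300 bases at Art4 were under a peak in all 6 samples. The Bcam window had no peak in any sample.

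The bases before the start are shown for 5 genes, to set lost promoters beside the retained one. The lost Smim1 promoter, which held neither of the patterns marked below, is not shown. Rhd (chr4:134864286-134864535, plus strand), Rhag (chr17:40810899-40811148, plus strand), Kel (chr6:41704326-41704575, minus strand) and Ermap (chr4:119189996-119190245, minus strand) were lost in knockout, and Art4 (chr6:136857601-136857850, minus strand) was retained. Each runs 5′ to 3′ in the direction of transcription and ends 1 base before the start. Capitals mark AGATAA or TGATAA, letters recognised by GATA factors, on either strand, so that TTATCA is TGATAA read on the other strand. Sequences are from RefSeq, build GRCm38.p6, the assembly that mm10 represents.
Rhd: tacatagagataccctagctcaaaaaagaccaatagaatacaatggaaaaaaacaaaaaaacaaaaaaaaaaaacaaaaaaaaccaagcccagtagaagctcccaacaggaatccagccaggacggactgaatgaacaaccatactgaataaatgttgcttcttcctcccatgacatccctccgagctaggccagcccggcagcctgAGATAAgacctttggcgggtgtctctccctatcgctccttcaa
Rhag: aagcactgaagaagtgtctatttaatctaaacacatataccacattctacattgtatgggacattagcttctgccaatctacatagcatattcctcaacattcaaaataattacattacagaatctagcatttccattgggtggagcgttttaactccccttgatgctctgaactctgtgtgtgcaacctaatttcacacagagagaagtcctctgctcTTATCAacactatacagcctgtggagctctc
Kel: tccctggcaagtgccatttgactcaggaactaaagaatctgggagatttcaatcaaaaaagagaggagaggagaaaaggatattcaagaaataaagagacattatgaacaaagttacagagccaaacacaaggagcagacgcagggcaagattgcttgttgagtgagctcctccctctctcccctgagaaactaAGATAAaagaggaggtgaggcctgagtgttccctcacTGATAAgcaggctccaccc
Ermap: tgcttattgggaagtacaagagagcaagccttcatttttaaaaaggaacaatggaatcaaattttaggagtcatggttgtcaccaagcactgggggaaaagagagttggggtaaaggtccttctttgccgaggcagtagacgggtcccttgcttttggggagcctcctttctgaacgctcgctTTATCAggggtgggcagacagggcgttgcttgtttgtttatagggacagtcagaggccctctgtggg
Art4: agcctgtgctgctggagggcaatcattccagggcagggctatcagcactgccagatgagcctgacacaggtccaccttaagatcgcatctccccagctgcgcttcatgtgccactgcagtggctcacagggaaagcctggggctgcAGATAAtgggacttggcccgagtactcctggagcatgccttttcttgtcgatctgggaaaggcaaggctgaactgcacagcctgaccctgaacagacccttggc

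Kel carried both letter patterns, at -56 to -51 and -19 to -14 from the start, Rhd had AGATAA at -43 to -38, Rhag TGATAA at -31 to -26 on the opposite strand, and Ermap TGATAA at -67 to -62 on the opposite strand. Art4, whose promoter stayed open, had AGATAA at -104 to -99. AGATAA was found in the windows of 3 of the 8 genes (Rhd, Kel and Art4) and in 9.65% of all 21263 windows, both strands searched. TGATAA, added after the sequences were seen, was found in 3 (Rhag, Ermap and Kel) and in 7.60% of all windows. Either was in 5 of the 8 and in 15.9% of all windows. Smim1, whose promoter was also lost, had neither. Such matches are a description of letters and do not show that a factor binds.

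Each of the other letter patterns was in 2 or fewer of the 8 windows. The CACCC boxes read by KLF1-type factors, CCACACCC and CCCCACCC, were in 0 windows and in the Aqp1 window, against 3.63% and 11.0% of all windows. TGACTCA, which is TGAGTCA on the other strand and is read by AP-1 and NF-E2, was in the Kel window (4.66% of all windows), and the longer NF-E2 pattern that contains TGAGTCA was in 0 of the 8 (0.0941%). E-box letters were found as CAGCTG at Rhd and Art4 (15.6% of all windows) and as CAGATG at Smim1 and Art4 (14.6%). The overlapping ETS patterns ACCGGAAG and CCGGAAGT and the RUNX patterns TGTGGTT and TGTGGTC were in none of the 8 windows, against 3.01%, 5.15%, 4.71% and 3.86% of all windows.

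**Figure D2:**
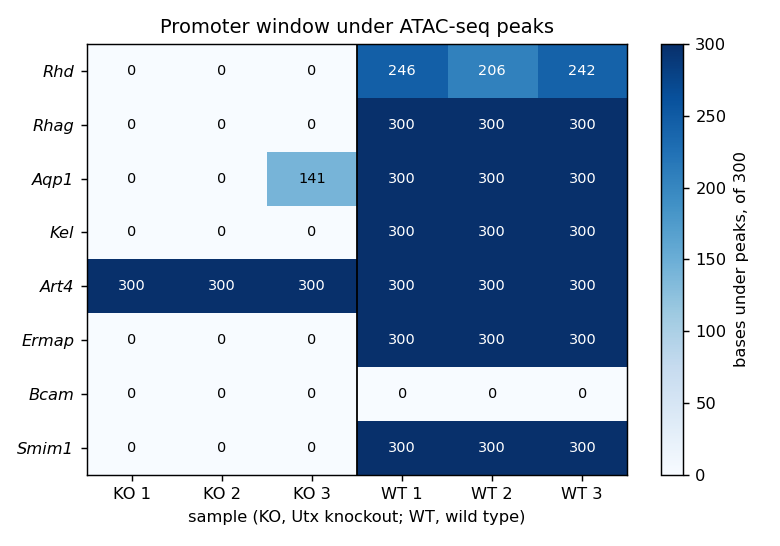
Bases under ATAC-seq peaks in the 300-base promoter window of each blood group gene (rows), for 3 Utx knockout and 3 wild-type samples (columns). Smim1, Ermap, Kel, Rhag and Rhd have 0 bases in all knockout samples and 206 to 300 in wild type, Art4 has 300 in all samples and Bcam has 0.

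Among the transport proteins, Rhd had 4, 3 and 3 peaks in knockout samples 1, 2 and 3, against 7, 6 and 8 in wild-type samples 1, 2 and 3. Rhd encodes the Rh protein of the red cell membrane and lies on chromosome 4 at 134864536 to 134896172. The genotypes did not overlap, yet the peaks left in knockout lay almost all outside the gene: the regions shared by all 6 samples overlapped Maco1 or Tmem50a. The 3 lost regions were at the transcript start (134864340 to 134864774; 394, 350 and 431 bp under peaks in the wild-type samples), 1.1 kb inside the gene (134865352 to 134865955) and 5.1 kb inside it (134869109 to 134870198; 827, 891 and 996 bp). Within the gene only a peak of 207 bp was called in knockout, in sample 1, at a region that also had a peak in wild-type sample 1.

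Rhag, encoding the Rh-associated glycoprotein, had 0, 1 and 2 peaks in knockout and 6, 6 and 9 in wild type. It lies on chromosome 17 at 40811099 to 40844094. The groups did not overlap, and the DNA under peaks was 0, 272 and 410 bp in knockout against 2614, 2889 and 4203 bp in wild type, a ratio of 0.0703. Its lost regions were the start (40810865 to 40811372), and regions 6.5 kb (40817353 to 40818021) and 10.5 kb (40821367 to 40821925) into the gene. A region 3686 bp before the gene (40806363 to 40807412) had 902, 852 and 1050 bp under peaks in wild type, and 272 bp in knockout sample 2 alone. None of its 9 regions had a peak in all 6 samples, and without knockout sample 3 its lost regions numbered 5 in place of 3.

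Aqp1, the water channel of red cells that also works in kidney and vessels, had 12 open regions in its window on chromosome 6 (gene at 55336299 to 55348555). It had 1, 1 and 2 peaks in knockout samples, against 9, 9 and 14 in wild-type samples. The groups were far apart, with 352, 371 and 516 bp under peaks in knockout and 8006, 9972 and 11519 bp in wild type, a ratio of 0.0420. Its widest region covered the start and the first part of the gene (55335867 to 55340104): wild-type peaks there summed to 3556, 4026 and 4238 bp, while knockout samples 1 and 2 had none and knockout sample 3 had 203 bp, so it does not count as lost. All 5 of its lost regions lay outside the gene. They were 14206 bp (55320865 to 55322092) and 11280 bp (55322880 to 55325018) before the gene, and 7462, 10104 and 18455 bp past its end. Mindy4 was the nearest gene to the regions upstream and Ghrhr to the last one downstream. With a window of 5 kb, Aqp1 therefore had 0 lost regions. The only Aqp1 region with a peak in all 6 samples was 4523 bp before the gene, at 352, 371 and 313 bp in knockout and 457, 497 and 468 bp in wild type.

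Of the surface enzymes, Kel had 0 peaks in all 3 knockout samples, against 4, 4 and 3 in wild-type samples 1, 2 and 3. Kel encodes the Kell metalloprotease, which can cleave endothelin precursors, and lies on chromosome 6 at 41686329 to 41704334. All 3 of its regions were lost, a state shared by 0.0452% of the 13279 genes with 3 or more regions. They covered the start (41702899 to 41705131; 1091, 1099 and 2233 bp under peaks in wild type), a place 1709 bp before the gene (41706044 to 41706812; 446, 531 and 769 bp) and one past the gene's other end, inside Llcfc1 (41684886 to 41685351; 444, 390 and 412 bp).

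Art4 had a peak at its promoter in all 6 samples. It belongs by sequence to the ADP-ribosyltransferase family, carries the Dombrock antigens and lies on chromosome 6 at 136848451 to 136857600. It had 5, 6 and 7 peaks in knockout and 7, 7 and 8 in wild type, and these overlap. The promoter region (136857203 to 136858356) had a peak in every sample, of 764, 616 and 644 bp in knockout and 1038, 1127 and 1074 bp in wild type: narrower in each knockout sample. The lost region was 1.3 kb inside the gene (136855943 to 136856734; 698, 378 and 515 bp in wild type). The next region, 2.2 kb inside (136855166 to 136855637), went the other way, with 466, 436 and 452 bp in knockout, against 0, 0 and 225 bp in wild type. Without wild-type sample 3 it counts as gained, the only gained region near the 8 genes in that setting. At the end of the gene a region (136847783 to 136849189) had 1023, 1207 and 1361 bp under peaks in wild type and 228 bp in knockout sample 3 alone; without that sample Art4 had 2 lost regions.

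Ermap, an erythroid membrane protein with an immunoglobulin domain, had 3 peaks in each knockout sample, against 5, 5 and 7 in wild-type samples. It lies on chromosome 4 at 119175457 to 119190013. The groups did not overlap, and the 3 knockout peaks were at the regions open in all 6 samples, which overlapped Zfp691, Svbp and a point 8.3 kb inside Ermap (119181436 to 119181898; 437, 393 and 422 bp in knockout, and 463, 337 and 403 bp in wild type). Its 2 lost regions were the start (119189577 to 119191062; 1311, 1406 and 1409 bp in wild type) and a region 1.5 kb inside (119188083 to 119188914; 723, 535 and 822 bp).

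Bcam, the Lutheran glycoprotein that binds laminin, had almost no peaks inside the gene itself. It lies on chromosome 7 at 19756138 to 19770532, and had 2, 3 and 2 peaks in knockout and 5, 4 and 4 in wild type. Within the gene itself the lists held 1 peak, of 240 bp in wild-type sample 1. Its lost region (19736564 to 19737193; 423, 470 and 630 bp in wild type) overlapped the neighbour Nectin2, 18944 bp from Bcam, so the values near Bcam mostly describe its neighbours. A region at Nectin2 with 208 bp in knockout sample 2 and 316, 320 and 276 bp in wild type was also lost once that sample was left out, which brought Bcam to 2.

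Smim1, a small membrane protein that carries the Vel antigen, had 1, 2 and 1 peaks in knockout and 5, 4 and 4 in wild type. It lies on chromosome 4 at 154020470 to 154026085. Its lost region spanned the start and the first 2608 bp after it (154023436 to 154026555), with 2161, 3120 and 2842 bp under peaks in wild type. A peak was present in every knockout sample at Lrrc47 (154011307 to 154012605; 713, 775 and 827 bp in knockout, against 1080, 722 and 1293 bp in wild type), where the groups overlap. Knockout sample 2 also had 287 bp at a region (154019341 to 154019954) that had 291, 407 and 614 bp in wild type. Without knockout sample 2, or without wild-type sample 1, Smim1 had 2 lost regions.

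**Figure D3:**
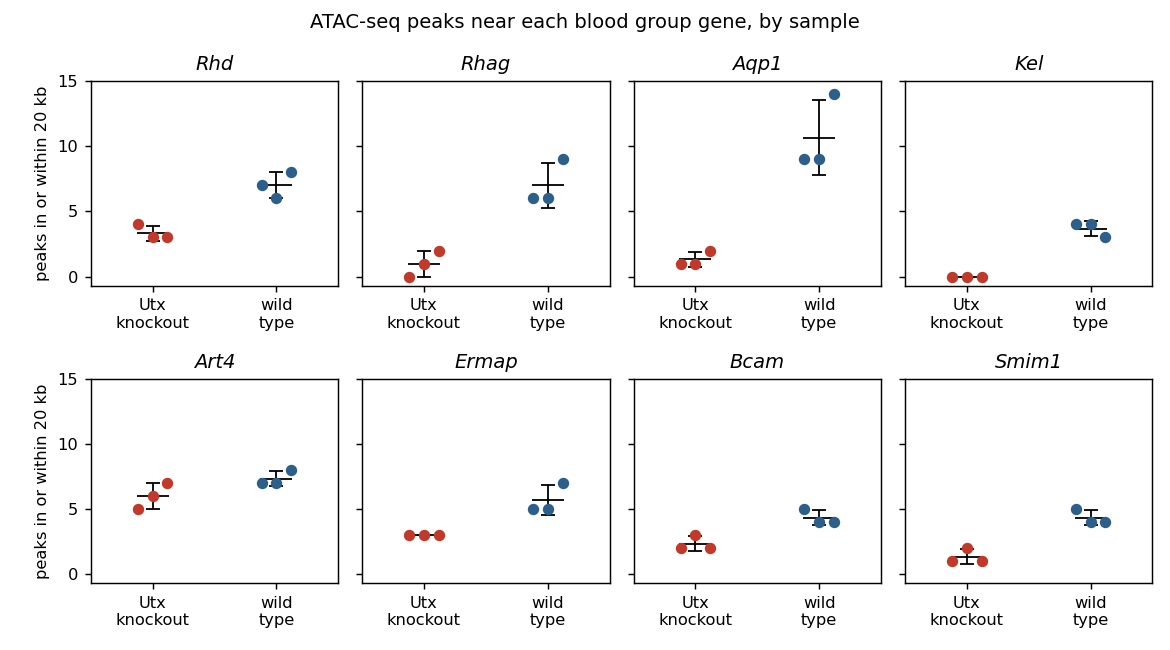
Number of ATAC-seq peaks in or within 20 kb of each blood group gene in each Utx knockout (left, red) and wild-type sample (right, blue), with mean and SD (n = 3 each). Kel has 0 peaks in all knockout samples, and Art4 is the gene whose groups overlap, at 5 to 7 in knockout and 7 to 8 in wild type.

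In peak number 7 of the 8 genes had every knockout sample below every wild-type sample, as did 27.6% of 16985 genes with a region. In DNA under peaks all 8 did, as did 49.4% of those genes. The median ratio of DNA under peaks was 0.321 over the 8 genes, and 0.825 over 16749 genes. As a description, Kel, Aqp1 and Rhag had the lowest ratios (0, 0.0420 and 0.0703), then came Smim1 (0.193) and Ermap (0.449), followed by Art4, Bcam and Rhd (0.542, 0.550 and 0.575). Only some steps of this order exceed the spread between knockout samples. Divided by each gene's wild-type mean, knockout values overlapped among Art4, Bcam and Rhd, between Ermap and Art4, and between Rhag and both Aqp1 and Kel, since Rhag had 0 bp in knockout sample 1.

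The 29 other blood group system genes included both losses and gains. Near them 35 of 216 regions (16.2%) were lost and 8 (3.70%) gained, beside 10.7% and 4.05% near all genes, and the median gene lost 1 region. Of the 28 with a region, 14 had lost and no gained regions, 4 had both, 1 had gained regions only and 9 had neither. A lost region was thus present at 18 of the 28, beside 36.3% of all genes with a region. Abo, the glycosyltransferase of the ABO group, had no region. Peaks numbered 125, 128 and 114 in knockout samples, against 176, 175 and 179 in wild-type samples, a ratio of 0.692 (0.856 as a share of peaks), and the median ratio of DNA under peaks was 0.632. The peak numbers of the groups did not overlap, and the two-sided exact permutation p was 0.1, the smallest that 3 samples against 3 allow, so this comparison cannot pass 0.05. Every knockout peak list was also shorter than every wild-type peak list. These 29 genes too were chosen with earlier results of these data known, so the p is only a description.

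Several of these genes encode transport and anchor proteins of the red cell membrane. Slc4a1, the anion exchanger band 3 that carries the Diego antigens, had 0 peaks in each knockout sample, against 3, 3 and 5 in wild type, and lost 3 of 5 regions. Ackr1, the Duffy chemokine receptor, had 2, 2 and 1 peaks in knockout and 7, 6 and 6 in wild type, with 3 of 6 regions lost. Gypc, glycophorin C, had 2, 3 and 2 peaks in knockout and 8, 6 and 7 in wild type, with 3 of 7 lost. Xk, the partner of Kell, had 1 peak in each knockout sample and 2, 2 and 3 in wild type: 1 of its 3 regions was lost, but its promoter window was fully open in all 6 samples. Aqp3, a water and glycerol channel, lost 1 of 5, and Slc29a1, a nucleoside transporter, 2 of 14. The efflux transporters Abcg2 and Abcc4 lost 2 and gained 1 of 6, and lost 3 and gained 1 of 29.

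Antigen carriers of wider expression lost or gained other numbers of regions. Gcnt2, which branches the sugar chains of the I antigen, lost 4 of 20 regions and Prnp, the prion protein, 3 of 7. The complement regulators Cr1l and Cd59a lost 2 of 6 and 1 of 8, the tetraspanin Cd151 lost 2 of 13, the choline transporter-like Slc44a2 lost 1 of 13, and Pigg and Emp3 lost 1 of 4 and 1 of 5. The hyaluronan receptor Cd44 lost 1 and gained 2 of 19 regions. Sema7a, a semaphorin that carries the John Milton Hagen antigen, went the other way: 3 of its 7 regions were gained and 0 lost, with 5 peaks in each knockout sample, against 2, 2 and 1 in wild type, and 1254, 1737 and 1361 bp under peaks against 423, 517 and 281 bp. It was the only one of the 28 with more peaks and more DNA under peaks in every knockout than in every wild-type sample, beside 4.24% and 9.90% of genes with a region. Without overlap, 15 of the 28 had fewer peaks and 21 less DNA under peaks, beside 27.6% and 49.4% of genes with a region.

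**Figure D4:**
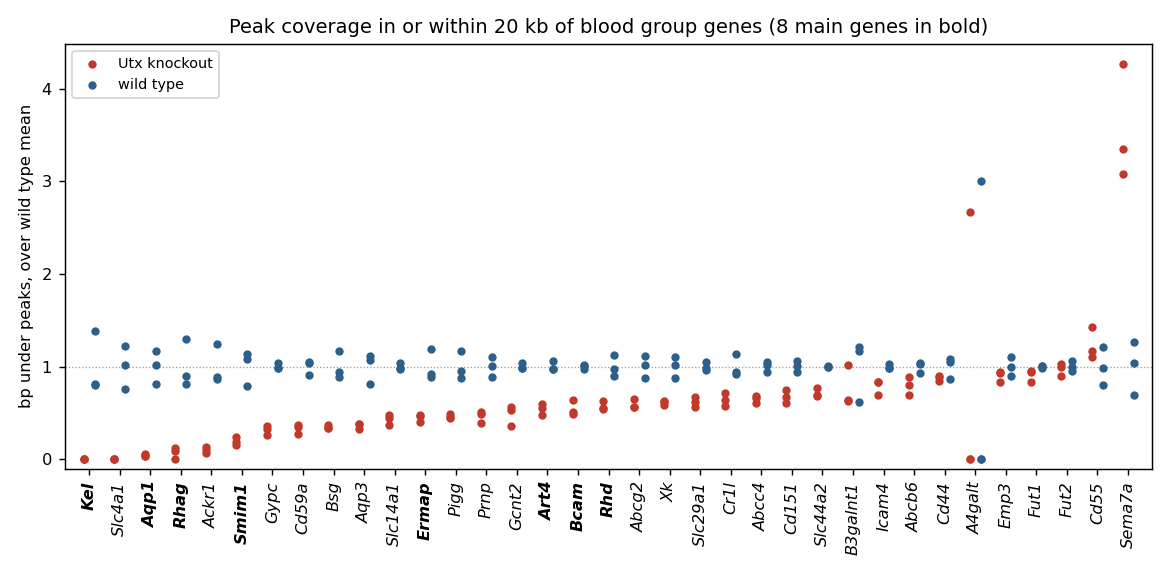
DNA under peaks in or within 20 kb of the 8 genes (bold) and of the other blood group genes with peaks that are reported here, in each Utx knockout (red) and wild-type (blue) sample, divided by the gene's wild-type mean. Kel and Slc4a1 are at 0 in all knockout samples, and Sema7a, at the right, is 3.56 times its wild-type mean on average.

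Markers of blood lineages were counted in the same way, and their shares stand beside 10.7% of regions lost and 4.05% gained near all genes and 0.810 times as many peaks in the whole lists. Near 14 erythroid markers, including Gata1, Klf1 and the globin genes, 33 of 90 regions (36.7%) were lost and 0 gained. Peaks near them numbered 34 to 37 in knockout samples and 77 to 84 in wild-type samples. All 14 genes had a lost region, beside 36.3% of all genes with a region. The windows of Hbb-bt and Hbb-bs overlap, as do those of Hba-a1 and Hba-a2, so the 14 genes are not 14 separate loci. No erythroid marker shared a region with the 8 blood group genes. Peaks near 10 B lineage markers numbered 61 to 77 in knockout and 39 to 45 in wild type, with 17 of 86 regions gained (19.8%) and 1 lost (1.16%), and near 10 T and NK markers 35 to 40 and 28 to 35, with 6 of 48 gained (12.5%) and 0 lost; Cd8a had no region. Near 8 megakaryocyte markers there were 24 to 28 peaks in knockout and 37 to 41 in wild type, with 8 of 49 regions lost (16.3%), 2 gained (4.08%) and no region at Gp6. For 10 granulocyte and monocyte markers the ranges were 46 to 55 in knockout and 58 to 66 in wild type, with 6 of 75 lost (8%), 2 gained (2.67%) and no region at Ly6g. Their peak ratio of 0.809 was close to that of the whole lists, and as a share of peaks it was 0.998. Their ratio of DNA under peaks was lower, at 0.690, beside 0.844 for all peaks of the lists. For 6 mast cell and basophil markers the ranges were 9 to 13 in knockout and 18 to 22 in wild type, with 1 of 28 lost (3.57%), 0 gained and none at Gzmb. Stem and progenitor markers lost 11 of 87 regions (12.6%), near the share over all genes, and gained 0. The part of the differences at erythroid and other markers in the loss near blood group genes was not tested, and in bulk samples fewer erythroid cells and less open chromatin per cell cannot be told apart.

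**Figure D5:**
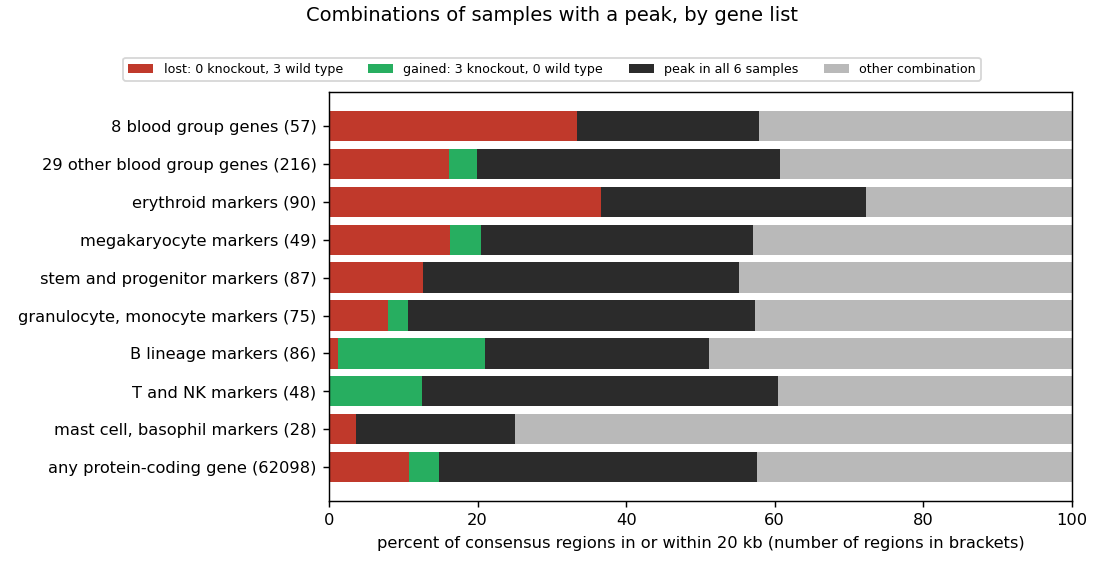
Percent of consensus regions that were lost (red), gained (green), open in all 6 samples (black) or in another combination (grey), near each gene list, with the number of regions in brackets. Lost regions make up 33.3% near the 8 blood group genes, 16.2% near the other blood group genes, 36.7% near erythroid markers and 10.7% near any protein-coding gene.

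Genes with the most similar pattern were sought by the Euclidean distance between DNA under peaks in the 6 samples, each divided by the wild-type mean, and that of the 8 genes summed (0.265, 0.294 and 0.273 in knockout samples 1, 2 and 3, and 0.877, 0.959 and 1.16 in wild-type samples 1, 2 and 3). Of 9188 genes with at least 5 regions and none shared with the 8, the nearest was Bpgm, the red cell enzyme that makes bisphosphoglycerate, at a distance of 0.0456, with 0.229, 0.276 and 0.269 in knockout and 0.886, 0.942 and 1.17 in wild type. Garem1 (0.0609), the flotillin gene Flot2 (0.0678), Scube1 (0.0849) and 1810020O05Rik (0.0854) followed.

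Regions lay close to the 20 kb limit at several of the 8 genes. Just inside it, Art4 had a region open in all 6 samples 19601 bp away and Bcam another at 19302 bp. The only lost region of Bcam lay 18944 bp away, and the farthest of Aqp1 18455 bp away. With a limit of 5 kb, 6 of the 8 genes had a lost region. Just outside, a region 20720 bp from Rhag was open in all 6 samples, and one 20793 bp from Rhd had a peak in 2 knockout and 3 wild-type samples.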

How the data were processed

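The deposited files are 1 list of peak coordinates per sample, with no score, count or depth; per the submitters' processing notes MACS2 (no version) and build mm10 were used, and the file names carry p1e-11. How reads were aligned, filtered, deduplicated and shifted for the transposase is not given in the sources used here. As samples are not tied to animals, spread between samples may be technical.

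Overlapping peaks (at least 1 bp) were merged over all 6 samples in Python 3.11.15 with numpy 2.4.6, and a region was open in a sample with at least 1 overlapping peak. Gene spans came from RefSeq, GRCm38.p6, the assembly of mm10; near means in or within 20 kb. Promoter windows matched all 8 genes and 21 of 29 other blood group genes. DNA under peaks was clipped to the gene window. The code was tested on simulated lists.

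The 8 genes and all 9 lists were chosen with earlier results of these data known. Named genes were the 8; other blood group genes with a lost or gained region, of which 1 is not reported here; nearest genes of lost regions; and the 5 most similar genes. Alternatives were leaving out each sample, the widest 50% of peaks, equal list lengths (44576), peaks covering 50% of a region, 2 of 3 samples sufficing, and 5 or 50 kb.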

Additional observations from a re-analysis of the deposited data

How the results depend on the processing

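Lost regions near the 8 blood group genes, 13 within 5 kb and 17 to 22 in the other settings, numbered 19 to 23 when each sample was left out in turn, and in those 6 settings all 8 genes had at least 1. As a share of the regions near the 8 genes, 33.3% in the report, they were 22.1% within 50 kb (21 of 95, beside 10.7% near all genes), 33.3% with lists of equal length (beside 7.43%) and 38.6% when 2 of 3 samples sufficed (beside 17.6%). Gained regions near them, 0 in the report, ranged from 0 to 1 with a sample left out, and were 1 with the widest 50% of peaks, 1 with lists of equal length, 1 when peaks had to cover 50% of a region and 1 within 50 kb. The ratio of peaks in knockout over wild type, 0.367, was 0.349 to 0.394 with a sample left out, 0.394 with lists of equal length, 0.296 with the widest 50%, 0.277 within 5 kb, 0.510 within 50 kb, where more neighbouring genes enter, and 0.454 as a share of peaks. Near the other blood group genes 35 lost regions became 22 with the widest 50% and 57 when 2 of 3 samples sufficed, and 8 gained regions became 0 with the widest 50% and 4 within 5 kb. Settings that alter only calls leave peak numbers as they are. Apart from fewer peaks, looser calls or other windows by construction, the cause was not tested. Near single genes, Rhd had 1 lost region with the widest 50%, Bcam 2 with the widest 50% and 0 within 5 kb, and Smim1 2 when 2 of 3 samples sufficed.

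Whether the replicate numbers pair the samples was not stated. Over 31159 regions open in all 6 samples, deviations of same-numbered samples correlated at -0.0300, 0.0250 and 0.0101. Those of other-numbered samples correlated at -0.0760 to 0.0584. Such values cannot exclude a shared preparation, so pairing stays unknown. With the replicate block the ratio near other blood group genes stayed 0.692 by construction, and its exact permutation p was 0.250, the smallest that block allows. Depth is unknown, so absence of a peak is not absence of open chromatin.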

Other observations

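Besides Kel, 5 protein-coding genes with 3 or more regions within 20 kb had every one of them lost: Hbb-bh2 of the beta-globin cluster (5 of 5), Slc5a2 (4 of 4), which encodes a kidney glucose transporter, Slc38a8 (3 of 3), an amino acid transporter gene, and the olfactory receptor genes Olfr65 and Olfr414 (3 of 3 each). Regions were assigned by distance alone, so they can overlap neighbouring genes, and the same region can count for more than a single gene. Which genes these regions overlap is not reported here, so the loss cannot be placed at the genes named. These were picked after their values were seen and carry no test.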
